A study of Homo sapiens with 6 samples.

Results

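The insulin-like growth factor (IGF) system was read in PC3 cells through 10 genes, which were the ligand gene IGF2, its imprinted neighbour H19, the receptor genes IGF1R and IGF2R, and the binding protein genes IGFBP2 to IGFBP7. They were picked by gene symbol from the 24462 symbols of the count files, taking the row with most reads for a repeated symbol. All 10 were in the files, and 8 passed the filter on low counts among 16314 genes in all, while IGFBP5 and IGFBP7 did not. The list was drawn up with the differences between the groups already known, so the members' differences are given as a description and without p-values.

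PC3 is a human prostate cancer cell line derived from a bone metastasis. RNA-seq was available for 6 libraries, 3 from cells given a non-targeting siRNA (si-Control) and 3 from cells given siRNA against CITED2 (si-CITED2), in both cases at 80 nM and for 72 h. CITED2 is a transcriptional co-regulator that binds p300 and CBP, and the comparison asks how expression changes when it is targeted. No other genotype or agent separates the groups. The methods list a single siRNA sequence for each, so an effect of the target and an effect of that sequence cannot be told apart. The labels do not say whether the libraries of a group came from separate cultures, although the study describes the experiments as independent, and if they did not, the p-values measure only the spread between libraries. The labels give no batch or date.

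The targeted gene was examined first. CITED2 had 966, 1108 and 657 reads in the si-Control libraries and 893, 964 and 898 in those labelled si-CITED2. After scaling to library size with TMM factors (trimmed mean of M values), which gives the normalised counts used throughout, its mean was 841.2 ± 61.4 (SD, n = 3) against 996.4 ± 82.4 (SD, n = 3), so the mRNA was not lower where the label names a knockdown. The log2 fold change was 0.24 (SE 0.07), with an adjusted p of 0.0363 by edgeR's quasi-likelihood test. It lay between 0.17 and 0.29 when each library was left out in turn, and passed 0.05 in 2 of those 6 fits, the ones without si-Control replicate 2 (0.28) and without si-CITED2 replicate 2 (0.29). The CITED2 mRNA thus goes against the label. The study verified the knockdown by immunoblot, a protein measure that is not analysed here. Every direction given here is that of the libraries labelled si-CITED2 relative to si-Control.

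The libraries held between 19508925 and 28936374 counts, and 3 counts, taken as the limit of detection, equalled 0.103 to 0.155 CPM (reads scaled to a common library total). Of the markers of PC3 and epithelial cells, KRT8, KRT18 and VIM were higher, EPCAM was lower and KRT19 did not pass the test, and their summed level was 2900 to 3110 CPM in si-Control and 3350 to 3600 CPM in si-CITED2. Of the leukocyte, endothelial, fibroblast and hepatocyte markers, CD68 (adjusted p = 0.404) and COL1A1 (adjusted p = 0.105) were in the fit and did not pass edgeR's test. CD68 was well detected, at 2622 to 3947 reads, and COL1A1 had 99 to 166. PTPRC had 0 to 2 reads, and TTR and AFP were at 0 in every library. The endothelial markers summed to 0.5 to 0.83 CPM in si-Control and 0.527 to 0.619 CPM in si-CITED2. All 3 erythroid markers (HBA1, HBA2 and HBB) were higher in si-CITED2, at 4.74 to 5.92 CPM in sum against 0.0377 to 0.205.

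IGF2 is a secreted growth factor that acts through IGF1R, a receptor tyrosine kinase, and through the insulin receptor. IGF2R, the cation-independent mannose-6-phosphate receptor, carries IGF2 to lysosomes and does not signal as a kinase, and the IGFBPs bind IGFs outside the cell and limit or prolong their access to IGF1R. IGF2 and H19 lie side by side in an imprinted cluster in which IGF2 is normally expressed from the paternal copy and the non-coding RNA H19 from the maternal copy, under shared enhancers. IGF signalling has long been studied in prostate cancer as a growth and survival signal.

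Of the 8 members in the fit, 4 were called higher in si-CITED2 (IGF2, IGF1R, IGFBP3 and IGFBP4) and 1 was called lower (IGF2R) at an adjusted p under 0.05, against 9.36% of all genes called higher and 8.09% called lower. Since the members were taken with this contrast known, nothing is read from that count. H19, IGFBP2 and IGFBP6 were not called.

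**Figure D1:**
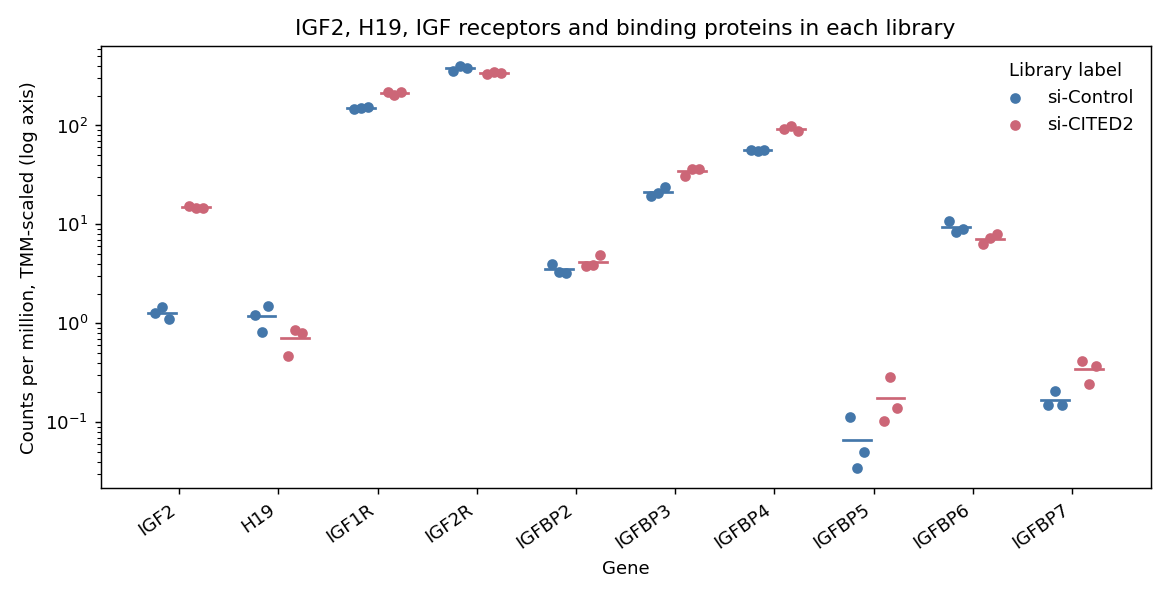
Level of each of the 10 genes in every library, in CPM on a logarithmic axis, with points for libraries and horizontal bars for group means (3 si-Control and 3 si-CITED2). IGF2 sits far apart between the groups, IGF1R, IGFBP3 and IGFBP4 are separated by smaller steps, and H19 and IGFBP2 overlap.

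The ligand gene had the largest difference of the 8. GENCODE 29 (GRCh38) holds separate entries named IGF2 at chr11:2129112-2149603 and chr11:2129112-2158658. Both are on the minus strand and annotated as protein coding. Their transcripts were pooled for the lengths and shared exon bases given here. IGF2 had 34, 43 and 22 reads in the si-Control libraries and 297, 360 and 318 in those labelled si-CITED2. On the normalised scale these were 30.22, 34.62 and 25.89 against 360.6, 344.0 and 348.4. All si-CITED2 values lay far above all si-Control values, with no overlap. The means were 30.24 ± 4.37 and 351.0 ± 8.63 (SD, n = 3 each), an 11.6-fold ratio and a log2 fold change of 3.51 (SE 0.14), and only 15 genes of the 16314 had a larger one. With each library left out in turn the log2 fold change ran from 3.43 to 3.63. In bulk RNA a change in the number of cells that express a gene and a change in RNA per cell cannot be told apart. The erythroid markers rose beside IGF2, and their part in the IGF2 difference was not tested.

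The count of IGF2 cannot be assigned to one transcript unit. INS-IGF2, a read-through gene of the insulin and IGF2 loci, had 33, 41 and 19 reads in si-Control against 277, 328 and 299 in si-CITED2, which was between 86.4% and 97.1% of the IGF2 count of the same library. The read-through shares 1580 exon bases with IGF2, which is 86.5% of its own exon bases and 20.6% of those of IGF2. All 540 coding bases of the IGF2-203 transcript lie in INS-IGF2 exons. INS itself, the insulin gene, was at 0 in all libraries, which allows up to 3 counts in each. The log2 fold change of INS-IGF2 was 3.50 (SE 0.15), given without a p-value since it may rest on the reads of IGF2. With both rows summed the log2 fold change was 3.51. The shared first coding exon is shown because reads on it fit either gene. It lies at chr11:2135367-2135523 on the minus strand (GRCh38), is 157 bases long and occurs in 9 IGF2 and 1 INS-IGF2 transcripts, with the start codon in capitals.

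IGF2 first coding exon: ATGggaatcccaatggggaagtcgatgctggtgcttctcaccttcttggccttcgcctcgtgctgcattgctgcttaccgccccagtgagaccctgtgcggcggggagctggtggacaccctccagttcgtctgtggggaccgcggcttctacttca

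H19, the non-coding RNA transcribed 127642 bases from IGF2 at chr11:1995176-2001470, did not follow IGF2. It had 32, 24 and 30 reads in si-Control against 9, 21 and 17 in si-CITED2. The highest si-CITED2 library lay above the lowest si-Control library after normalisation, so the groups overlapped. The means were 27.69 ± 8.01 and 16.54 ± 4.91 normalised counts (SD, n = 3 each), with a log2 fold change of -0.69 (SE 0.34) that was not called. HOTS, known as a transcript antisense to H19, had 4 to 14 reads and a log2 fold change of -0.66 (SE 0.43, adjusted p = 0.342 by edgeR's quasi-likelihood test), and if strand was not used in the counting its reads cannot be told from those of H19. The ratio of IGF2 to H19 counts was 1.06, 1.79 and 0.733 in si-Control against 33.0, 17.1 and 18.7 in si-CITED2, and the groups did not overlap.

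The receptor genes were called in opposite directions. IGF1R, at chr15:98648539-98964530, had 3452, 3526 and 3585 normalised counts in the si-Control libraries against 5195, 4801 and 5120. Every si-CITED2 library exceeded every si-Control library, and the log2 fold change was 0.52 (SE 0.05, ratio 1.43), with a range of 0.49 to 0.55 over the fits that left out 1 library. IGF2R, at chr6:159969099-160113507, had 8370, 9401 and 8955 normalised counts in the si-Control libraries against 7876, 8112 and 8052. The groups did not overlap, but the step was small, at a log2 fold change of -0.15 (SE 0.05, ratio 0.899). The call of IGF2R was kept without si-Control replicate 1 (-0.20) and was lost without any of the other 5 libraries, where it lay between -0.16 and -0.11. It was also lost in the fit blocked on replicate number (-0.15).

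The ratio of IGF1R to IGF2R per length went from 0.455 ± 0.0219 to 0.722 ± 0.0394 (SD, n = 3 each). INSR, which encodes the insulin receptor that also binds IGF2, did not pass the test (log2 fold change -0.01, SE 0.08, adjusted p = 0.942 by edgeR's quasi-likelihood test). Its level per length was 23.4% ± 2.76 of that of IGF1R in si-Control and 16.3% ± 0.621 in si-CITED2 (SD, n = 3 each).

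**Figure D2:**
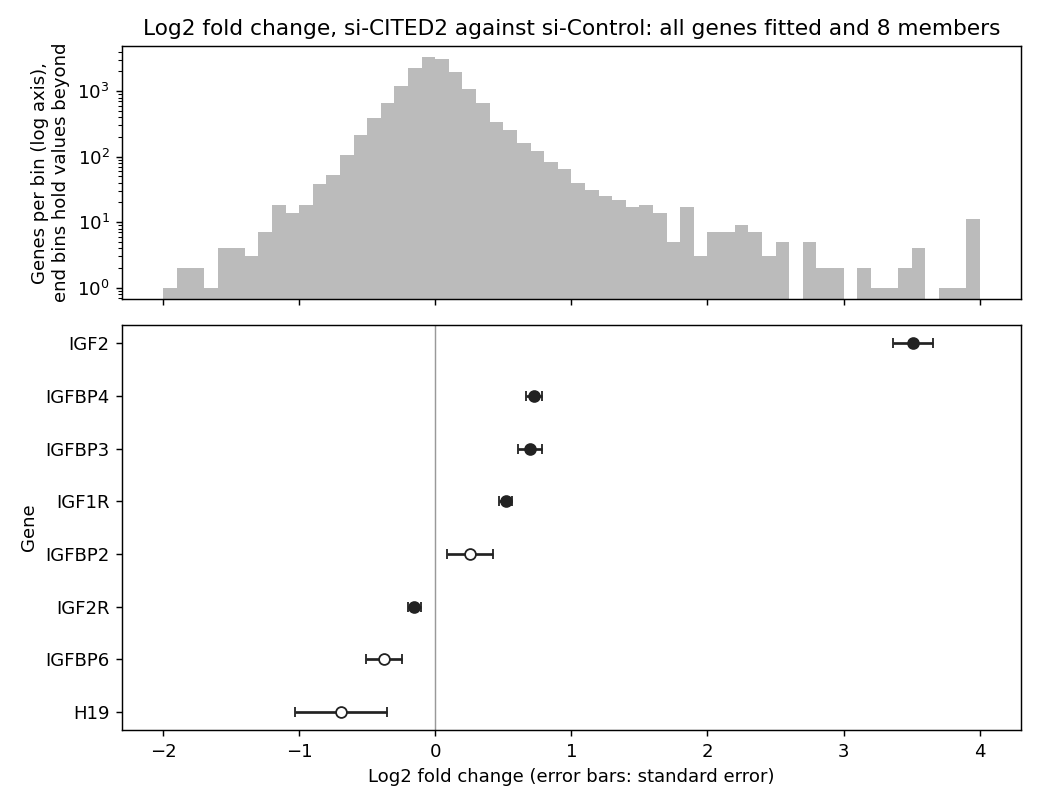
Log2 fold change (si-CITED2 over si-Control) of the 8 members in the fit, as points with bars of 1 standard error, filled where called and open where not, below a histogram of the 16314 genes tested, whose gene counts are on a logarithmic axis and whose end bins also hold more extreme values. IGF2 at 3.51 lies in the upper tail, and the other called members lie between -0.15 and 0.73.

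Among the binding protein genes, IGFBP3 and IGFBP4 were higher. IGFBP3 encodes the main carrier of IGFs in the circulation. At chr7:45912245-45921874 it had 457.7, 494.3 and 564.8 normalised counts in the si-Control libraries against 728.6, 861.8 and 853.5. The lowest si-CITED2 library was above the highest si-Control library, and the log2 fold change was 0.70 (SE 0.09, ratio 1.61). IGFBP4, whose product is cut by the protease PAPPA, is at chr17:40443461-40457731 and had 1338, 1304 and 1334 normalised counts against 2174, 2312 and 2086. The groups were again apart, with a log2 fold change of 0.73 (SE 0.06, ratio 1.65). Leaving out single libraries gave 0.63 to 0.78 for IGFBP3 and 0.68 to 0.76 for IGFBP4.

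IGFBP6, which encodes a binding protein that prefers IGF2 over IGF1, had a lower mean in si-CITED2 and was not called. At chr12:53097436-53102345 it had 256.9, 195.6 and 209.4 normalised counts in the si-Control libraries against 149.4, 172.0 and 187.3. The groups did not overlap, yet the highest si-CITED2 and the lowest si-Control library were close, and the log2 fold change was -0.38 (SE 0.13, ratio 0.768). It was called when library size was used without TMM factors and in no other fit, and it ran from -0.46 without si-Control replicate 2 to -0.25 without si-Control replicate 1. IGFBP2, at chr2:216632828-216664436, had 94.21, 77.29 and 76.48 against 89.86, 91.73 and 115.0 normalised counts. Its groups overlapped, with a log2 fold change of 0.26 (SE 0.17) that was 0.14 without si-CITED2 replicate 3 and was 0.36 without si-Control replicate 1.

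IGFBP5 and IGFBP7 were at the edge of detection. IGFBP5, the neighbour of IGFBP2 at chr2:216672105-216695525, had 3, 1 and 1 reads in si-Control against 2, 7 and 3 in si-CITED2. IGFBP7, at chr4:57030773-57110385, had 4, 6 and 3 against 8, 6 and 8 reads. Neither entered the fit, and at this depth no difference can be read from them.

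Levels of different genes were compared per length, as RPKM (CPM divided by the length of the longest transcript in kilobases). In si-Control the order was IGF2R (26.9 ± 1.56), IGFBP4 (25.6 ± 0.355), IGF1R (12.2 ± 0.232), IGFBP3 (8.90 ± 0.958), IGFBP6 (7.96 ± 1.16), IGFBP2 (2.44 ± 0.295), H19 (0.501 ± 0.145) and IGF2 (0.230 ± 0.0332), all as mean ± SD with n = 3. IGFBP7 (0.118 RPKM) and IGFBP5 (0.0106 RPKM) were last. The ranges of IGF2R and IGFBP4 overlapped, as did those of IGFBP3 and IGFBP6. In si-CITED2 IGFBP4 was first at 42.3 ± 2.20 RPKM, clear of IGF2R at 24.2 ± 0.371, and IGF2 at 2.67 ± 0.0656 overlapped IGFBP2 at 2.92 ± 0.414. H19 (0.299 ± 0.0888) and IGFBP7 (0.240 ± 0.0619) also overlapped there. With exon-union lengths IGFBP4 came first and IGFBP6 passed IGFBP3 in si-Control. If all reads of IGF2 fell on the 1580 bases shared with INS-IGF2, its level would be 0.813 ± 0.117 RPKM in si-Control and 9.43 ± 0.232 in si-CITED2, above H19 in the first and above IGFBP6 in the second.

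**Figure D3:**
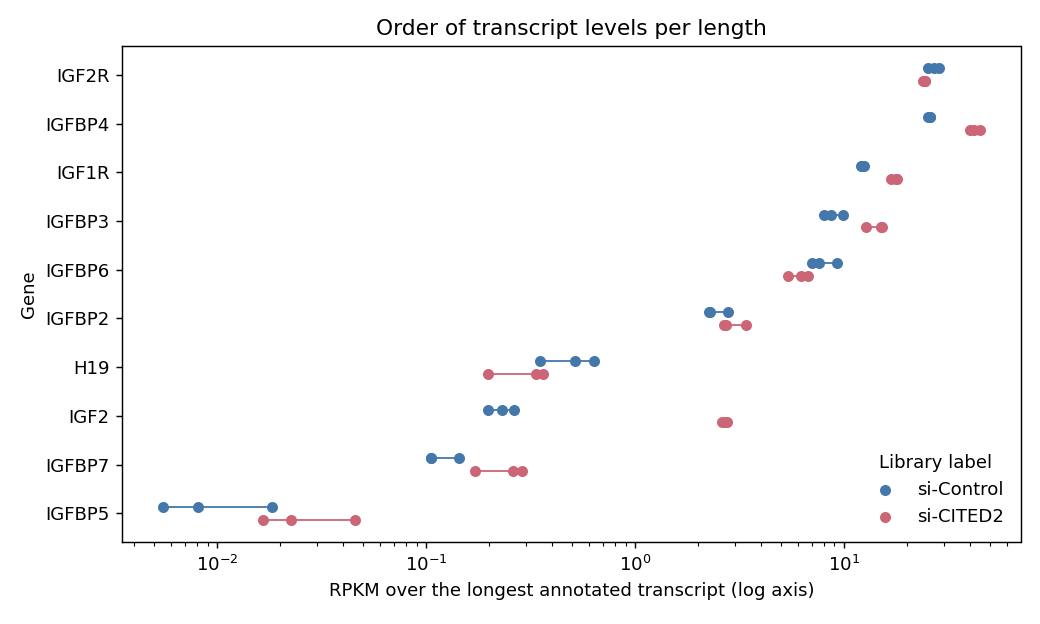
Level per length (RPKM, logarithmic axis) of the 10 genes in each library, ordered by the si-Control mean. IGF2R and IGFBP4 share the top in si-Control, IGFBP4 stands alone there in si-CITED2, and IGF2, with the length of its longest transcript, lies below H19 in si-Control and beside IGFBP2 in si-CITED2.

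The IGF2 level was set beside those of genes whose proteins bind the ligand. Per length of the longest transcript IGF2 was 0.854% ± 0.110 of IGF2R in si-Control and 11.5%, 10.7% and 10.9% in the libraries labelled si-CITED2, and 0.512% ± 0.0886 and 4.06% ± 0.276 of the summed IGFBP2 to IGFBP7 level (SD, n = 3 each). If its reads fell on the bases shared with INS-IGF2, IGF2 would be 3.02% ± 0.389 of IGF2R in si-Control and 40.7%, 37.7% and 38.5% in the libraries labelled si-CITED2, and 1.81% ± 0.313 and 14.3% ± 0.975 of the summed binding protein level. That sum was 45.0 ± 1.44 RPKM in si-Control and 65.9 ± 2.91 RPKM in si-CITED2. IGFBP4 made up 56.9% ± 1.05 of it in si-Control and 64.2% ± 2.65 in si-CITED2, while IGFBP6 went from 17.7% ± 2.14 to 9.27% ± 0.905, and neither pair of ranges overlapped. Part of the fall in the IGFBP6 share reflects the larger sum, since IGFBP6 itself had a ratio of 0.768 and was not called. IGFBP3 held 19.8% ± 2.16 and 21.7% ± 1.29 and IGFBP2 5.41% ± 0.562 and 4.43% ± 0.650, with overlap. The ratio of IGFBP4 to IGFBP6 was 3.25 ± 0.413 and then 6.98 ± 0.933. The shares depend on the length used, but with exon-union lengths and with none the IGFBP4 share was still higher (67.2% to 75.1% and 62.0% to 66.7%) and that of IGFBP6 lower (18.2% to 9.51% and 10.3% to 5.16%). IGFBPL1, a related gene outside the family of IGFBP2 to IGFBP7, was at 36.2 ± 0.875 RPKM in si-Control and did not pass the test (log2 fold change -0.08, adjusted p = 0.463 by edgeR's quasi-likelihood test).

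**Figure D4:**
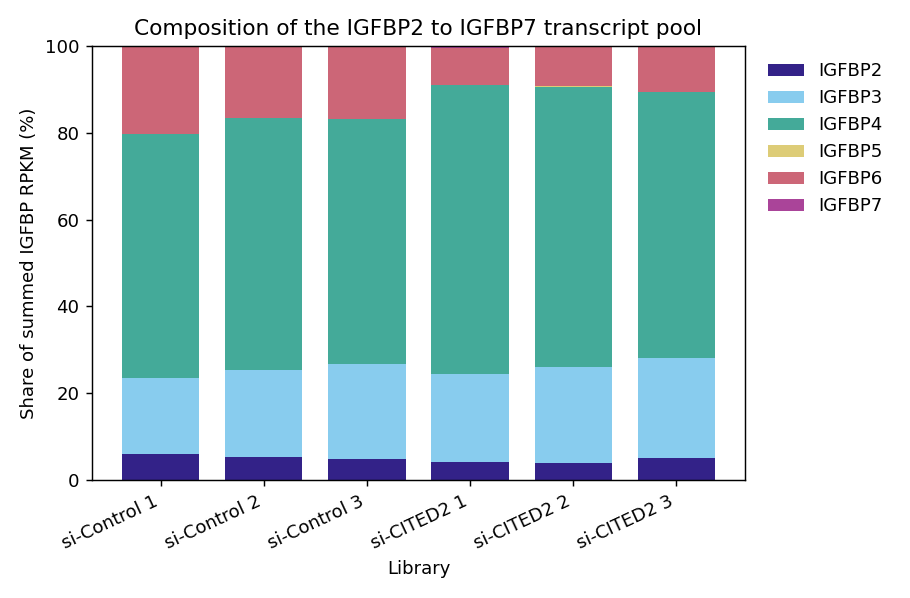
Share of each binding protein gene in the summed IGFBP2 to IGFBP7 level per length, in percent, stacked for each of the 6 libraries. The IGFBP4 part is larger and the IGFBP6 part smaller in all 3 libraries labelled si-CITED2, where the sum itself is also higher.

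The genes whose pattern over the 6 libraries was most like that of IGF2, by root mean square distance of centred log2 CPM, were INS-IGF2 (0.0501), PMEPA1 (0.150), ANGPTL4 (0.161), NEDD9 (0.207) and HBB (0.240). This distance follows mainly the step between the groups, so the list restates the contrast and adds no separate evidence. Log2 fold changes were 3.60 for PMEPA1, 3.72 for ANGPTL4 and 3.50 for NEDD9, beside 3.51 for IGF2. INS-IGF2 may hold the same reads as IGF2. PMEPA1, a transmembrane protein gene, had 628.4 ± 27.3 and 7606 ± 142 normalised counts, and ANGPTL4, an inhibitor of lipoprotein lipase, had 756.4 ± 47.6 and 9966 ± 628 (SD, n = 3 each). HBB had 0 reads in each si-Control library and 20, 32 and 20 in si-CITED2, so its distance depends on the prior count of 2 that was added before taking logs.

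Promoter sequence of the members was read from RefSeq (GRCh38.p14) for 250 bases before each RefSeq start, which gave 10 windows for 8 of the 10 genes. IGF2 and IGFBP7 were not matched. Motifs of transcription factor families to which CITED2 is known to bind as a co-regulator were searched on both strands, GCCNNNGGC for AP-2, which reads the same on both strands, and CAGAC for SMAD proteins. GCCNNNGGC occurred in 4 of the 10 windows (H19, IGFBP5, IGFBP6 and IGF1R) and in 19.8% of all 35116 promoter windows. CAGAC occurred in 3 of the 10 (H19 and 2 starts of IGFBP2) and in 38.0% of all. A match is a string of letters and not a binding site. The 150 bases before the RefSeq start are shown for 4 members. IGF1R was called higher and has a match. IGFBP4 has the largest fold change of the called members with a window and no match. H19 and IGFBP6 were not called and have matches. Capitals mark GCCNNNGGC matches, of which IGFBP6 has 2 that overlap, and the H19 CAGAC match lies outside the stretch shown. The stretches are chr15:98648389-98648538 (plus strand), chr17:40443300-40443449 (plus), chr11:2001267-2001416 (minus) and chr12:53097517-53097666 (plus).

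IGF1R: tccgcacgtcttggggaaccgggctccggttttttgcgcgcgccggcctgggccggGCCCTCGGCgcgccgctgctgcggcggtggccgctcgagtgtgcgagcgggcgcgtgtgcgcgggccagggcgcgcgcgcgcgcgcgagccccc
IGFBP4: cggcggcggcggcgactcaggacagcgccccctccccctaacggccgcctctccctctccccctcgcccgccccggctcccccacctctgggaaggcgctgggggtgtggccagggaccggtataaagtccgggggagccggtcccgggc
H19: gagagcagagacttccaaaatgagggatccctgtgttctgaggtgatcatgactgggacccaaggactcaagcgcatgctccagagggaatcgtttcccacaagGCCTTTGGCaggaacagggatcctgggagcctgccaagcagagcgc
IGFBP6: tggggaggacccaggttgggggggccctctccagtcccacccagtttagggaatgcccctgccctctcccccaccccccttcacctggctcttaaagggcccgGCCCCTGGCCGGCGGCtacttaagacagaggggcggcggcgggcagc

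The genes around the members were taken as 9 lists. Of their 73 genes in the fit, 11 were called higher (15.1%) and 11 lower (15.1%), against 9.36% and 8.09% of all genes, and their median log2 fold change was -0.02 beside -0.00137 for all genes. Without INS-IGF2, which may repeat IGF2, 10 of 72 were called higher (13.9%). The lists, like the members, were drawn up with earlier results of these data known. Nothing is therefore read from these counts, and the p-values of list genes describe the contrast and are not independent evidence. All adjusted p-values that follow come from the same edgeR fit, adjusted by Benjamini-Hochberg over all genes in it. Among other ligands, receptors and binding proteins INS-IGF2 was the 1 called gene of 4 tested, and IGF1, the other ligand gene, had 16 to 27 reads and did not pass the test (log2 fold change -0.13, adjusted p = 0.824).

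Of 8 tested IGFBP proteases and inhibitors, 2 were higher and 2 lower. The stanniocalcins, inhibitors of the IGFBP4 protease PAPPA, went in opposite directions, STC1 by 0.53 (SE 0.06, adjusted p = 4.5e-06) and STC2 by -0.67 (SE 0.06, adjusted p = 5.79e-07). PAPPA itself did not pass the test, at 272.5 ± 17.6 and 287.4 ± 32.9 normalised counts (SD, n = 3 each). HTRA1, a serine protease that cuts IGFBPs, was higher by 0.28 (SE 0.09, adjusted p = 0.0487), a call kept without si-Control replicate 3 and lost without any other library (range 0.19 to 0.33). The HTRA1 call was also lost with DESeq2, without TMM factors and in the fit blocked on replicate number. CTSD, the lysosomal protease cathepsin D, was lower by -0.21 (SE 0.07, adjusted p = 0.039), a call kept without si-CITED2 replicate 1 and lost without any other (range -0.30 to -0.16).

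Of the IGF2 mRNA-binding proteins, IGF2BP3 was higher by 0.24 (SE 0.06, adjusted p = 0.0141), a call lost without si-CITED2 replicate 2 or 3 (range over single libraries left out 0.18 to 0.28), and IGF2BP1 and IGF2BP2 did not pass the test. Of 14 receptor adaptors and phosphatases, 2 were higher and 2 lower. IRS2, a docking protein that couples IGF1R to PI3K, was lower by -0.43 (SE 0.08, adjusted p = 7.57e-04), and its relative IRS1 was at -0.19 (SE 0.07, adjusted p = 0.0659). PTPN1, a phosphatase that acts on insulin and IGF receptors, was lower by -0.22 (SE 0.05, adjusted p = 0.00464). GRB10, an adaptor that restrains these receptors, was higher by 0.28 (SE 0.06, adjusted p = 0.00552). SOCS3, an inhibitor of cytokine and insulin receptor signalling, was higher by 0.27 (SE 0.09, adjusted p = 0.0479), a call kept without si-Control replicate 1 and lost without any other (range 0.21 to 0.31). The SOCS3 call was also lost with DESeq2, without TMM factors, with no filter on low counts and in the fit blocked on replicate number. Of 9 partners of IGF2R in trafficking and lysosomal sorting, PLAUR, the urokinase receptor, was higher by 0.79 (SE 0.07, adjusted p = 4.31e-07), and the other 8 did not pass, among them M6PR, the smaller mannose-6-phosphate receptor (0.02, adjusted p = 0.882).

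Genes that FOXO factors activate and that insulin or IGF signalling is known to lower did not move one way. Of 9 tested, 3 were higher, which were PIK3IP1, a PI3K inhibitor (2.34, SE 0.24, adjusted p = 2.86e-06), FBXO32, a ubiquitin ligase subunit (1.10, SE 0.14, adjusted p = 3.15e-05), and CCNG2, an atypical cyclin (0.71, SE 0.16, adjusted p = 0.00437). TXNIP, a thioredoxin-binding protein gene, was lower by -0.51 (SE 0.10, adjusted p = 0.00169). PDK4, a kinase of pyruvate dehydrogenase, was lower by -0.46 (SE 0.12, adjusted p = 0.0164), a call lost without si-Control replicate 3 or si-CITED2 replicate 2 (range -0.49 to -0.42).

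Around IGF2 and H19, 11 imprinted or neighbouring genes of 11p15 were tested and 2 were called lower. CDKN1C, a cyclin-dependent kinase inhibitor gene of the adjacent imprinted domain, had 21.9 ± 1.55 and 36.6 ± 7.75 normalised counts (SD, n = 3 each) and did not pass (0.74, SE 0.27, adjusted p = 0.0748). TSSC4 was lower by -0.34 (SE 0.10, adjusted p = 0.0345), a call kept without si-Control replicate 3 or si-CITED2 replicate 2 and lost without any of the other 4 libraries (range -0.41 to -0.25). PHLDA2, a growth-restraining imprinted gene, was lower by -0.31 (SE 0.09, adjusted p = 0.0176), a call lost without si-Control replicate 2 or si-CITED2 replicate 3 (range -0.37 to -0.21). The median of the list was -0.05.

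**Figure D5:**
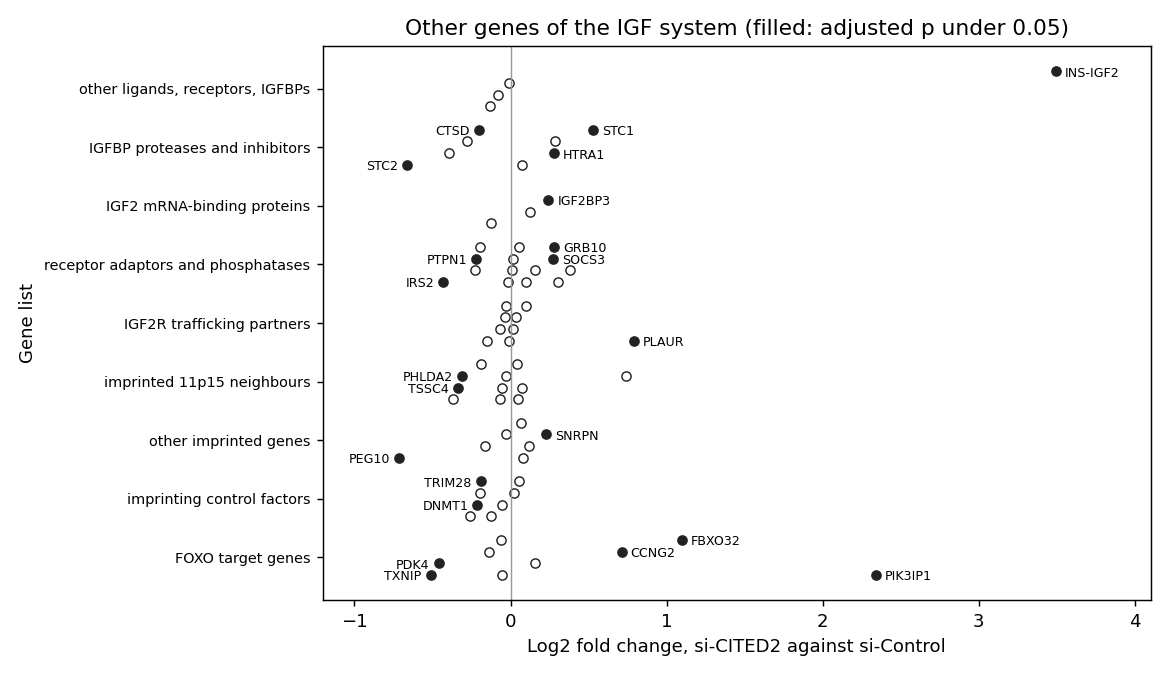
Log2 fold change (si-CITED2 over si-Control) of the 73 tested genes of the 9 lists, 1 row per list, with filled points and names for the 22 genes called at an adjusted p under 0.05. INS-IGF2 lies farthest from 0. Each list has values on both sides of 0, although those of the imprinting control factors are mostly below it.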

How the data were processed

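RNA was extracted with Trizol and made into libraries with a SMARTer mRNA-Seq kit. For each library the authors deposited a file of raw, whole-number read counts by gene symbol. TopHat, edgeR and the hg19 build are named in the submitters' processing notes without role or version. The counting program, annotation and use of strand are not given in the sources used here.

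The single row with most reads was used for each of 286 symbols with several rows (25737 rows, 24462 symbols). The fit used edgeR 4.0.16 in R 4.3.3 (filterByExpr, TMM, glmQLFit and glmQLFTest, no block), with Benjamini-Hochberg adjustment over 16314 genes and a call at an adjusted p under 0.05. To normalise, each count was divided by its library's TMM-adjusted size and scaled back by the average such size. Standard errors came from the F statistic. The scripts were tested on simulated data. RPKM used GENCODE 29 transcript lengths (GRCh38). Coordinates are of GRCh38, not of the build of the counts. With 3 libraries a group an exact permutation p cannot go below 0.1. No replicate pair agreed within sampling noise, with chi-square values of 2.89 to 7.53 for each degree of freedom.

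The members and lists were chosen with earlier results of these data known, and the lists come from general knowledge of the IGF system. Named genes were the members, CITED2, every called gene of a list with 6 or fewer calls, and the 5 genes most like IGF2. Other genes named with values were chosen after their values were seen. Alternatives were DESeq2 1.42.0, no TMM, no filter beyond a count above 0, at least 10 counts in every library, the replicate number as a block, rows of a symbol summed, IGF2 and INS-IGF2 summed, each library left out, and other gene lengths. Some marker genes are not reported here.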

Additional observations from a re-analysis of the deposited data

How the results depend on the processing

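The calls of IGF2, IGF1R, IGFBP3 and IGFBP4 as higher held in all settings run, including each fit that left out 1 library. The number of members called lower was 1, but 2 without TMM factors (IGF2R and IGFBP6), 0 with the replicate block, and 0 to 1 when each library was left out. Same-numbered libraries did not deviate together over all genes in the fit (correlations -0.038, 0.0336 and -0.0109). Differently numbered libraries gave -0.0438 to 0.0512. Correlations over all genes cannot exclude a pairing that affects only some of them, and the labels do not say whether the numbers pair the libraries. The log2 fold change of CITED2 was 0.22 without TMM factors, where its adjusted p by edgeR's quasi-likelihood test was 0.0518, 0.24 with the replicate block, and 0.17 to 0.29 with each library left out. Genes called higher numbered 1390 to 1595 over the settings and 1135 to 1519 with a library left out, and genes called lower 1154 to 1530 and 881 to 1328. List genes called lower were 7 to 12 with a library left out, the lowest without si-Control replicate 2 or si-CITED2 replicate 3, and those called higher were 8 to 10. Of the 22 called list genes, 14 were called in all 6 fits that left out a library, 20 with the replicate block and 20 by DESeq2, HTRA1 and SOCS3 being lost in both. The level of IGF2 over the bases shared with INS-IGF2 was an alternative chosen after seeing the data. The cause of these changes was not tested. Depth limits IGFBP5 and IGFBP7, and to a lesser degree H19 with 9 to 32 reads per library.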

Other observations

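Of 8 tested factors that control imprinting, 2 were called lower, against 8.09% of all genes called lower. Their median log2 fold change was -0.16, beside -0.00137 for all genes. Nothing is read from a count this small. DNMT1, the maintenance DNA methyltransferase, had 18660 ± 805 normalised counts in si-Control and 16100 ± 469 in the libraries labelled si-CITED2 (SD, n = 3 each), a log2 fold change of -0.21 (SE 0.05, adjusted p = 0.00513 by edgeR's quasi-likelihood test). TRIM28, a co-repressor that guards imprinted marks, was at -0.19 (SE 0.05, adjusted p = 0.0098 by the same test), a call lost without si-Control replicate 2 or si-CITED2 replicate 3 (range over single libraries left out -0.22 to -0.17). Of 7 tested imprinted genes outside 11p15, PEG10, a retrotransposon-derived gene, was lower with 3693 ± 14.3 against 2250 ± 66.7 normalised counts (SD, n = 3 each; log2 fold change -0.72, SE 0.05, adjusted p = 1.68e-08), and SNRPN, a splicing factor gene, was higher by 0.23 (SE 0.05, adjusted p = 0.00783).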
